A study of Mus musculus with 6 samples.

Results

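Genes linked to B-1 cells were followed through RNA sequencing libraries of mouse cells, 3 labelled KO and 3 labelled WT. The set holds 9 genes chosen by name: the transcription factor genes Zbtb32, Bhlhe41, Bhlhe40 and Ahr, the surface protein genes Cd5, Ctla4, Spn and Nt5e, and the ligand gene Pdcd1lg2. All 9 were among the 21399 gene symbols of the deposited tables, and all 9 passed the minimum mean of 1 FPKM that left 10732 genes for testing. FPKM is the number of sequenced fragments per kilobase of transcript, scaled to the depth of the library, so levels can be set side by side between genes.

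In the experiment, microglia of KO or WT mice that carry the CD45.2 form of the leukocyte protein CD45 were starved of oxygen and glucose. Peritoneal macrophages from CD45.1 mice joined them when oxygen and glucose were returned, and cells sorted after the co-culture were sequenced. The design text calls the sorted cells CD45.1+ microglia, although CD45.1 marks the mice that gave the macrophages, so which of these cells were sequenced is not settled. The KO group is therefore microglia of KO mice with added CD45.1 peritoneal macrophages, and the WT group is microglia of WT mice with the same addition; deprivation, reoxygenation and co-culture were common to both. The labels name both cell types as the source of every library and do not name the deleted gene, its promoter or Cre driver, or the animals' age, and the title of the series names PPARα. Whether the 3 libraries of either group are separate cultures or animals is not stated, and the p-values therefore reflect a spread that may be technical.

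B-1 cells are self-renewing B cells that reside mainly in the peritoneal and pleural cavities and make natural antibody, much of it IgM, without prior immunisation. They differ from the follicular B cells of spleen and lymph nodes in surface proteins: the B-1a subset carries CD5, and peritoneal B-1 cells also carry CD43, the product of Spn, and a part of them PD-L2, the product of Pdcd1lg2. The paired repressors Bhlhe41 and Bhlhe40 are needed for the maintenance of B-1a cells in mice. Several of these genes are not exclusive to B-1 cells: Cd5, Ctla4, Spn and Nt5e are also expressed by T cells, and Ahr, Bhlhe40 and Pdcd1lg2 also by macrophages and dendritic cells.

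The libraries held 34542822 to 38092819 reads recovered from the FPKM steps. Ppara was near the detection limit and not lower in the libraries labelled KO, with 13, 23 and 10 reads in the KO libraries and 11, 1 and 2 reads in the WT libraries, so the groups are named by their labels only. Transcripts of B cells were plentiful throughout, whereas the microglial genes P2ry12 and Sall1 peaked at 1.09 and 0.152 FPKM. The sum over 16 peritoneal macrophage genes ranged from 7372 to 15381 FPKM in the KO libraries and from 2936 to 5930 FPKM in the WT libraries. The sum over 12 pan-B cell genes ranged from 5247 to 5756 FPKM in the KO libraries and from 6001 to 6792 FPKM in the WT libraries. The sum over 14 T cell genes ranged from 407 to 465 FPKM in the KO libraries and from 459 to 561 FPKM in the WT libraries. Single genes weigh heavily in such sums. Lyz2, in the macrophage sum, had means of 5569 FPKM in KO and 1759 FPKM in WT. Cd2, in the T cell sum and also expressed by B cells of the mouse, had means of 210 FPKM in KO and 237 FPKM in WT. In bulk RNA, fewer cells of a type and less RNA per cell cannot be told apart.

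Zbtb32 was the most abundant of the 9 genes in every library, and Pdcd1lg2 and Ahr were the least abundant. By mean level over the 6 libraries the order was Zbtb32 at 50.7 FPKM, Spn at 34.6, Bhlhe40 at 28.9, Nt5e at 27.8, Bhlhe41 at 26.03, Ctla4 at 20.5, Cd5 at 12.2, Ahr at 9.44 and Pdcd1lg2 at 7.69 FPKM. The ranges of neighbours in this order overlapped over the 6 libraries, except that Ctla4 lay above Cd5 throughout. Nt5e ranked 2, 2 and 3 among the 9 in the KO libraries and 5, 5 and 6 in the WT libraries. Bhlhe41 ranked 5, 5 and 5 in the KO libraries and 3, 4 and 3 in the WT libraries, and places also shifted between single libraries for the other genes except Zbtb32 and Cd5. Reads per gene ran from 782 to 9152, and counting error alone would give a coefficient of variation of 1.14% to 3.36%. The observed coefficients of variation within a group ran from 3.47% for Bhlhe40 in the KO libraries to 25.2% for Ahr in the WT libraries, so the spread between libraries was larger than counting error for each gene in each group.

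**Figure D1:**
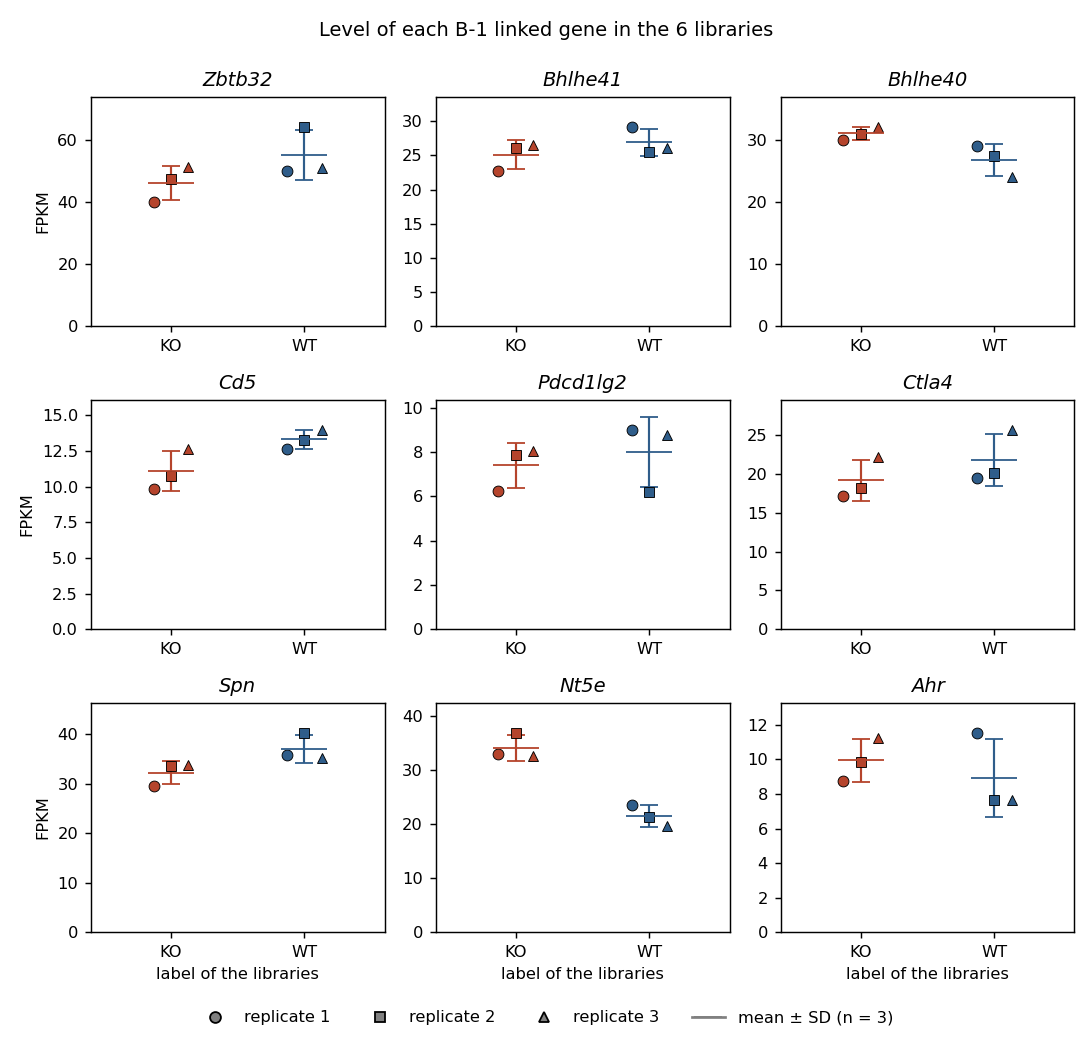
FPKM of each of the 9 genes in the 3 libraries labelled KO (red, left) and the 3 labelled WT (blue, right), with the mean and SD; every axis starts at 0. Nt5e lies between 32.4 and 36.8 FPKM in the KO libraries and between 19.6 and 23.6 FPKM in the WT libraries, and for the other genes the groups lie close together or overlap.

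The promoters of the genes were searched for CACGTG, the E-box that the products of Bhlhe41 and Bhlhe40 bind, and for GCGTG, the core of the site that the aryl hydrocarbon receptor binds, on both strands; no match of one overlapped the other. RefSeq promoters of GRCm38.p6, each 250 bases before to 50 after a start, were at hand for 7 of the 9 genes, with 8 starts. CACGTG was found at 1 of 8 starts, that of Bhlhe41, and at 7.15% of 32851 promoters of the same length. GCGTG was found at 3 of 8 starts, of Bhlhe41, Zbtb32 and Nt5e, and at 32.4% of all promoters. The 3 promoters with a match are shown in transcript orientation with both motifs in capitals (CACGC is GCGTG on the other strand). Bhlhe41 lies at chr6:145865371-145865670 on the minus strand, Zbtb32 at chr7:30598860-30599159 on the minus strand and Nt5e at chr9:88327359-88327658 on the plus strand.
Bhlhe41: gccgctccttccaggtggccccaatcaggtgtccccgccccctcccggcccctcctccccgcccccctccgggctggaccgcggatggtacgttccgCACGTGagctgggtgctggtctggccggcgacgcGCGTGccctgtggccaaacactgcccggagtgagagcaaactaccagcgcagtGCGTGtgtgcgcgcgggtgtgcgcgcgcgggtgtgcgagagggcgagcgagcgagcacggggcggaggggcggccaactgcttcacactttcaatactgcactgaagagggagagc
Zbtb32: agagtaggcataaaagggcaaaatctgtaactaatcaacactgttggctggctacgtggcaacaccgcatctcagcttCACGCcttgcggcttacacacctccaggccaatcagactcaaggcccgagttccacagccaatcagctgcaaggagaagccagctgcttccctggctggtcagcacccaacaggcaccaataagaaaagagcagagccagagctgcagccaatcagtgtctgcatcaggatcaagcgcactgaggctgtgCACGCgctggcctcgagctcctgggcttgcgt
Nt5e: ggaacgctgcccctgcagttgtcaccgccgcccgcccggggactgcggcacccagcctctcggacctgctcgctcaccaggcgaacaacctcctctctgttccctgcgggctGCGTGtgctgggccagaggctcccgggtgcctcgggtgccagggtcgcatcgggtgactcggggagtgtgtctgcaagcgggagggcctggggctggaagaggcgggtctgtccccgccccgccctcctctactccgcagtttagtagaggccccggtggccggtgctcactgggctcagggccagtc
The E-box of Bhlhe41 begins at position -153 relative to its start, and the GC content of the shown promoters was 70.7% for Bhlhe41, 56.0% for Zbtb32 and 71.0% for Nt5e. Nt5e has 1 GCGTG and no CACGTG. A match is a run of letters only and says nothing of binding in these cells.

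The comparison of KO with WT libraries asked whether expression of the 9 differed between co-cultures with KO and with WT microglia, as labelled. On log2(FPKM + 1), with limma across all 10732 genes and Benjamini-Hochberg adjustment, 3 genes were called higher in the KO libraries, 0.028% of those tested, and 0 were called lower, and none of the 9 was among them. With voom, run on whole reads, 5 genes were higher and 0 lower. That count of 3 depended on single libraries: it was 1 if either KO replicate 1 or KO replicate 2 was left out and 0 if either WT replicate 1 or WT replicate 3 was. Leaving out WT replicate 2 gave 500 genes called higher and 38 called lower. Of the 9 genes, 3 had positive and 6 negative differences, where 35.4% of all genes tested were positive and 64.6% negative. The median difference of the 9 was -0.10 (log2), beside -0.06 over all genes tested. At an unadjusted limma p under 0.05, Nt5e was higher and Cd5 lower, where 8.86% of all genes were higher and 8.21% lower. All KO values were above all WT values for Nt5e and Bhlhe40, and all were below for Cd5 and Spn; over all genes 9.75% were apart in the first way and 15.2% in the second.

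Nt5e encodes CD73, an enzyme on the cell surface that turns AMP into adenosine, a suppressor of inflammation. It stood at 32.9, 36.8 and 32.4 FPKM in the KO libraries, against 23.6, 21.2 and 19.6 FPKM in the WT libraries. Each KO library lay above each WT library. The mean was 34.1 ± 2.40 FPKM in KO and 21.4 ± 1.99 FPKM in WT (SD, n = 3 each), 1.59 times as high in KO, with a difference of 0.64 (log2, SE 0.10, unadjusted p = 0.000227, adjusted p = 0.0774 by limma). The difference thus missed the threshold over all genes. It passed without WT replicate 2 (adjusted p = 0.0235 by limma) and with array weights (adjusted p = 0.0117), and over all 17 alternatives the difference stayed between 0.56 and 0.71 with adjusted p-values from 0.0117 to 0.309. The macrophage sum given above is higher in KO libraries too, and its part in this difference was not tested. The protein-coding gene spans chr9:88327197-88372092 (mm10, plus strand) and overlaps no other annotated gene.

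The enzymes and receptors around CD73 were read from a list of 9 adenosine pathway genes, of which 6 were tested and 0 passed. Entpd1 encodes CD39, which makes the AMP that CD73 uses, and stood at 11.3 ± 0.397 FPKM in KO and 9.20 ± 0.246 FPKM in WT libraries (SD, n = 3 each). The adenosine receptor gene Adora2b stood at 2.55 ± 0.118 FPKM in KO and 1.26 ± 0.707 FPKM in WT libraries. For both genes every KO library lay above every WT library, with limma adjusted p-values of 0.152 for Entpd1 and 0.194 for Adora2b. The receptor gene Adora2a stood at 14.3 ± 0.905 FPKM in KO and 15.4 ± 1.92 FPKM in WT libraries, and the groups overlapped. Of the 6 genes tested, 3 differences were positive and 3 negative, with 4 positive under median-of-ratios scaling and 2 positive under the other scalings.

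The transcription factor genes did not share a pattern. Zbtb32 encodes a zinc finger repressor of the BTB family that is expressed in lymphocytes. It stood at 40.2, 47.4 and 51.3 FPKM in the KO libraries, against 49.97, 64.5 and 51.1 FPKM in the WT libraries. WT replicate 2 was the highest and KO replicate 1 the lowest, and the groups overlapped between KO replicate 3 and WT replicates 1 and 3. The mean was 46.3 ± 5.60 FPKM in KO and 55.2 ± 8.07 FPKM in WT (SD, n = 3 each; difference -0.25, SE 0.13, adjusted p = 0.393 by limma). Leaving out WT replicate 2 made it -0.13, and leaving out KO replicate 1 made it -0.15. The protein-coding gene spans chr7:30589681-30598909 (mm10, minus strand) and overlaps no other annotated gene.

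Bhlhe41 and Bhlhe40 encode related basic helix-loop-helix repressors, also called DEC2 and DEC1, which bind E-box sequences and take part in circadian control as well. Bhlhe41 stood at 22.7, 26.03 and 26.6 FPKM in the KO libraries, against 29.2, 25.5 and 26.1 FPKM in the WT libraries. The groups overlapped, with means of 25.1 ± 2.08 FPKM in KO and 27.0 ± 1.98 FPKM in WT (SD, n = 3 each; difference -0.10, SE 0.10, adjusted p = 0.623 by limma). Leaving out KO replicate 1 gave -0.03 and leaving out WT replicate 1 gave -0.04. Bhlhe40 stood at 29.9, 30.9 and 32.1 FPKM in the KO libraries, against 29.0, 27.3 and 23.9 FPKM in the WT libraries. The groups lay narrowly apart, with KO replicate 1 just above WT replicate 1, and had means of 31.0 ± 1.07 FPKM in KO and 26.7 ± 2.59 FPKM in WT (difference 0.21, SE 0.09, adjusted p = 0.309 by limma). Leaving out WT replicate 3 gave 0.13.

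The balance of this pair, a measure chosen after the values were seen, did not overlap between the groups. Bhlhe40 over Bhlhe41 was 1.32, 1.19 and 1.21 in the KO libraries and 0.992, 1.07 and 0.916 in the WT libraries. The mean ratio was 1.24 ± 0.0697 in KO and 0.992 ± 0.0765 in WT (SD, n = 3 each). Permuting the labels of its log2 values (exact test, two-sided) gave p = 0.1, which is the lowest p that groups of 3 can give. Groups of 3 that do not overlap always give this value, so the test adds nothing to the lack of overlap. How many other pairs of genes lie apart in this way was not counted. Bhlhe41 spans chr6:145858243-145865558 (mm10, minus strand) and Bhlhe40 spans chr6:108660629-108666925 (plus strand). Each overlaps another annotated gene on the opposite strand, and with no stated strand setting reads of such pairs cannot be told apart.

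Ahr encodes the aryl hydrocarbon receptor, a transcription factor switched on by environmental, dietary and microbial ligands. It stood at 8.73, 9.86 and 11.2 FPKM in the KO libraries, against 11.5, 7.63 and 7.64 FPKM in the WT libraries. WT replicate 1 was the highest of all 6 and the other WT libraries the lowest, so the groups overlapped, with means of 9.94 ± 1.26 FPKM in KO and 8.94 ± 2.25 FPKM in WT (SD, n = 3 each; difference 0.16, SE 0.17, adjusted p = 0.657 by limma). Without WT replicate 1 the difference was 0.34 (adjusted p = 0.290 by limma). It was 0.07 when KO replicate 3, WT replicate 2 or WT replicate 3 was the library left out. Ahr is a protein-coding gene at chr12:35497974-35535038 (mm10, minus strand) and overlaps a long noncoding gene of the other strand.

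Of 9 AHR pathway genes listed, 7 were tested and 0 passed. The differences were 4 positive and 3 negative, but 7 positive with median-of-ratios scaling. Ahrr, a repressor that the receptor itself induces, stood at 2.24 ± 0.596 FPKM in KO and 0.503 ± 0.0463 FPKM in WT libraries, with groups that did not overlap (SD, n = 3 each; difference 1.09, adjusted p = 0.0764 by limma). It passed the minimum mean of 1 FPKM only through the KO libraries, so neither this p-value nor the lack of overlap is support for a difference. The quinone reductase gene Nqo1 stood at 2.31 ± 0.928 FPKM in KO and 1.13 ± 0.472 FPKM in WT, and the partner gene Arnt at 20.6 ± 2.34 FPKM in KO and 21.2 ± 1.99 FPKM in WT. Nqo1 had overlapping groups (adjusted p = 0.259 by limma), as had Arnt. Tiparp, another gene that the receptor induces, stood at 22.2 ± 2.37 FPKM in KO and 21.7 ± 3.38 FPKM in WT. Cyp1a1, its best-known target, reached at most 0.0808 FPKM in any library.

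Among the surface proteins other than CD73, Cd5 encodes a scavenger receptor family protein that dampens antigen receptor signals and defines B-1a cells. It stood at 9.87, 10.8 and 12.6 FPKM in the KO libraries, against 12.7, 13.3 and 14.002 FPKM in the WT libraries. The groups lay apart by a small margin between KO replicate 3 and WT replicate 1, with means of 11.1 ± 1.41 FPKM in KO and 13.3 ± 0.671 FPKM in WT (SD, n = 3 each; difference -0.25, SE 0.10, unadjusted p = 0.0459, adjusted p = 0.283 by limma). The protein-coding gene spans chr19:10717116-10739002 (mm10, minus strand) and overlaps no other annotated gene.

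Spn encodes CD43, a heavily glycosylated sialoprotein of leukocytes. It stood at 29.5, 33.5 and 33.7 FPKM in the KO libraries, against 35.7, 40.3 and 35.1 FPKM in the WT libraries. Every KO library lay below every WT library, with means of 32.3 ± 2.35 FPKM in KO and 37.0 ± 2.81 FPKM in WT (SD, n = 3 each; difference -0.19, SE 0.09, adjusted p = 0.341 by limma). Spn is a protein-coding gene at chr7:127132232-127137823 (mm10, minus strand) and overlaps no other annotated gene.

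Ctla4 encodes an inhibitory receptor that binds CD80 and CD86. It stood at 17.2, 18.2 and 22.1 FPKM in the KO libraries, against 19.5, 20.1 and 25.7 FPKM in the WT libraries. The groups overlapped, with means of 19.2 ± 2.61 FPKM in KO and 21.8 ± 3.39 FPKM in WT (SD, n = 3 each; difference -0.17, SE 0.14, adjusted p = 0.548 by limma). Leaving out WT replicate 3 made it -0.06, KO replicate 1 made it -0.10 and KO replicate 3 made it -0.28. Ctla4 is a protein-coding gene at chr1:60887000-60915832 (mm10, plus strand), and a processed pseudogene of the same strand overlaps it.

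Pdcd1lg2 encodes PD-L2, a ligand of the inhibitory receptor PD-1. It stood at 6.23, 7.87 and 8.06 FPKM in the KO libraries, against 9.005, 6.19 and 8.79 FPKM in the WT libraries. WT replicate 2 was the lowest of all 6 and the other WT libraries the highest, with means of 7.39 ± 1.00 FPKM in KO and 7.99 ± 1.57 FPKM in WT (SD, n = 3 each; difference -0.09, SE 0.15, adjusted p = 0.783 by limma). Without KO replicate 1 the difference was 0.01 and without WT replicate 2 it was -0.25. The protein-coding gene spans chr19:29410919-29471161 (mm10, plus strand) and overlaps an antisense gene.

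Of 9 other genes of the PD-1 and CTLA-4 pathways, all were tested and 0 passed. Cd86, a ligand of CTLA-4 on antigen-presenting cells, stood at 32.4 ± 3.80 FPKM in KO and 23.8 ± 0.623 FPKM in WT libraries (SD, n = 3 each; difference 0.42, adjusted p = 0.119 by limma). Cd274, which encodes PD-L1, the other ligand of PD-1, stood at 37.8 ± 2.85 FPKM in KO and 30.8 ± 1.09 FPKM in WT (difference 0.29, adjusted p = 0.169 by limma). Both had groups that did not overlap, higher in KO, while Icosl, a costimulatory ligand, stood at 54.0 ± 4.61 FPKM in KO and 68.1 ± 7.99 FPKM in WT, also without overlap. On the per-length scale Pdcd1lg2 was below Cd274 in both groups.

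KO replicate 1 held the lowest FPKM of the 6 libraries for Zbtb32, Bhlhe41, Cd5, Ctla4 and Spn. How many of all genes tested were lowest in KO replicate 1 was not counted, so this cannot be read as a trait of the 9 genes. Without KO replicate 1 the median difference over all genes tested was -0.04 (log2), beside -0.06 with it. The same library held the highest level of the peritoneal macrophage genes, with a mean deviation of 1.25 (log2) from their average over the 6 libraries, and the lowest level of the pan-B cell genes, with a mean deviation of -0.23. The part of either in the lower values was not tested.

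**Figure D2:**
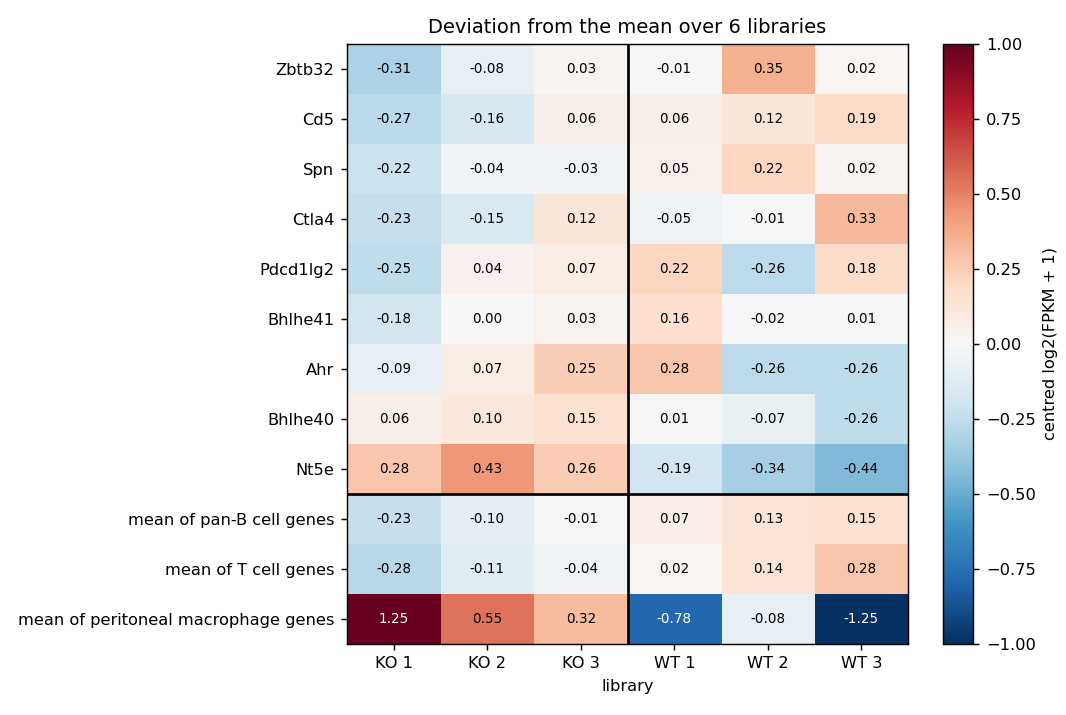
Deviation of log2(FPKM + 1) in each library from the mean over the 6 libraries, for each of the 9 genes and for the mean of the pan-B, T cell and peritoneal macrophage genes; red is above and blue below the mean, with the colour capped at ±1. Nt5e deviates by 0.26 to 0.43 in the KO libraries and by -0.44 to -0.19 in the WT libraries, whereas Cd5 runs close to the pan-B and T cell rows.

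The profiles of the 9 genes over the 6 libraries were set against those of cell type lists, by the mean absolute difference of centred log2(FPKM + 1) values. Cd5 was at a distance of 0.04 from the pan-B cell profile and 0.05 from the T cell profile, Spn at 0.06 and 0.08, and Zbtb32 at 0.10 and 0.11. Ctla4 was slightly nearer to the T cell profile (0.09) than to the pan-B cell profile (0.10). All 4 were 0.79 to 0.83 away from the peritoneal macrophage profile. Nt5e was 0.44 from the pan-B cells, 0.47 from the T cells and 0.47 from the macrophages. Its deviations and those of the macrophage profile were positive in each KO library and negative in each WT library, which only restates the group difference. The macrophage profile was highest in KO replicate 1 (1.25) and WT replicate 2 (-0.08) of the 2 groups, and Nt5e in KO replicate 2 (0.43) and WT replicate 1 (-0.19). Both were lowest in replicate 3 of each group. Ahr was at 0.26 from the pan-B cell and 0.68 from the macrophage profile, and Bhlhe40 at 0.22 and 0.60. A dendritic cell profile was nearest for Nt5e, Ahr, Bhlhe40 and Bhlhe41, but it rested on 2 tested genes, Flt3 and Itgax, with means of 3.54 and 1.65 FPKM. The measure does not scale for the size of the deviations. A gene that varies little is therefore far from the widely varying macrophage profile, whatever its direction, and nearer to the flatter profiles. These distances also describe 6 libraries that share the group difference, so they do not assign a gene to a cell type.

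Among all other genes tested, those nearest to Nt5e over the 6 libraries were Zeb2, Rbms1 and Notch1, at distances of 0.02, 0.03 and 0.06. Lrrc56 and Ccdc17 were among those nearest to Cd5 (0.02 and 0.03), and nearest to Zbtb32 were Bcl3, Traf1 and Def6 (0.03 each). Nfkb1, Ints8 and Zfp24 lay nearest to Bhlhe41 (0.01 to 0.02), and B4galt1, Zcchc24 and Ptk2 nearest to Bhlhe40 (0.03 each). Ssb, Ccdc97 and Cacna1s lay nearest to Spn (0.02 each), Ercc5, Ap1m2 and Cyp4f13 to Ctla4 (0.03 each), and Marchf7, Ncoa3 and Eif5a2 to Pdcd1lg2 (0.02 each). Nearest to Ahr were Mbnl2, Fgl2 and Dpy19l1, at 0.04, 0.07 and 0.08.

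Expression relative to Cd79a, a signalling subunit of the B cell receptor, was taken in each library to set these genes beside a B cell transcript. The FPKM of each gene comes from all cells of the library, so the ratio is not a level per unit of B cell RNA. Cd79a itself stood at 1786, 1676 and 1808 FPKM in the KO libraries, against 1942, 2237 and 2009 FPKM in the WT libraries. Every KO library lay below every WT library, with means of 1757 ± 70.4 FPKM in KO and 2062 ± 155 FPKM in WT (SD, n = 3 each; difference -0.23, SE 0.10, adjusted p = 0.309 by limma). Dividing by Cd79a therefore moved the median difference over all genes tested to 0.17 (log2), against -0.06 without it, and left 9.76% of genes called higher and 0.0186% called lower by limma. The 1047 genes called higher became 1 on leaving out KO replicate 1 or 2, 168 on leaving out WT replicate 1 and 166 on leaving out WT replicate 3. The 2 called lower became 0 on leaving out KO replicate 1, KO replicate 2 or WT replicate 1, then 1 for KO replicate 3 and 13 for WT replicate 2.

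On this scale 7 of the 9 genes had positive and 2 negative differences, where 87.5% of all genes were positive and 12.5% negative, and the median of the 9 was 0.13. Nt5e and Bhlhe40 were called higher and none was called lower, beside 9.76% of all genes called higher and 0.0186% called lower. At an unadjusted limma p under 0.05 the same 2 genes were higher and none was lower. The shares over all genes were then 26.9% higher and 0.0839% lower. For these 2 genes each KO value was above each WT value, beside 33.2% of all genes apart in that way and 0.652% lower. Zbtb32, Cd5, Spn and Ctla4 had differences from -0.02 to 0.05 with SEs of 0.10 to 0.15, which leaves room for differences of that size in either direction. The sign of Zbtb32, Cd5, Spn, Ctla4 and Pdcd1lg2 on this scale turned under at least 1 alternative.

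Nt5e stood at 1.84%, 2.20% and 1.80% of Cd79a in the KO libraries, against 1.21%, 0.947% and 0.976% in the WT libraries. Each KO library was above each WT library. The mean was 1.94% ± 0.219 in KO and 1.05% ± 0.146 in WT (SD, n = 3 each), 1.86 times as high in KO, with a difference of 0.87 (SE 0.13, adjusted p = 0.0182 by limma). The call ended when 1 of 3 libraries was left out: KO replicate 1 (difference 0.91, adjusted p = 0.0647 by limma), KO replicate 2 (0.79, adjusted p = 0.0953) or WT replicate 3 (0.83, adjusted p = 0.0518). With Cd79b, Ms4a1 or the mean of the pan-B cell genes in place of Cd79a the call held, with adjusted limma p-values from 0.00323 to 0.0447.

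Bhlhe40 stood at 1.68%, 1.84% and 1.77% of Cd79a in the KO libraries, against 1.49%, 1.22% and 1.19% in the WT libraries. The groups did not overlap, with means of 1.77% ± 0.0847 in KO and 1.30% ± 0.167 in WT (SD, n = 3 each; difference 0.44, SE 0.11, adjusted p = 0.0461 by limma). The call was lost in 12 of 16 alternatives, among them each of the 6 fits that left out 1 library (adjusted p from 0.0526 to 0.185 by limma) and each of the 3 other denominators. Ahr stood at 0.489%, 0.588% and 0.622% of Cd79a in the KO libraries and at 0.594%, 0.341% and 0.380% in the WT libraries (difference 0.39, SE 0.20, adjusted p = 0.257 by limma), with WT replicate 1 among the KO values. The Ahr difference on this scale was 0.61 without WT replicate 1 (adjusted p = 0.0664 by limma) and 0.24 without WT replicate 2. The macrophage genes were higher in the KO libraries too, and their part in the Bhlhe40 and Ahr values was not tested.

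Relative to Cd79a, 6 genes of the lists named beside the 9 also passed, all higher in KO libraries: Ahrr and Cd9 (adjusted p = 0.0170 each by limma), Cd86 (0.0207), Entpd1 (0.0324), Cd274 (0.0357) and Adora2b (0.0372). These are the genes that passed in the AHR, PD-1 and CTLA-4, adenosine and other B-1 lists, beside the 9.76% of all genes called higher. Of them, Ahrr was tested only through its level in the KO libraries, so its p-value is no support for a difference.

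Zbtb32 stood at 2.25%, 2.83% and 2.84% of Cd79a in the KO libraries and at 2.57%, 2.88% and 2.54% in the WT libraries (difference -0.02, SE 0.11). Cd5 stood at 0.553%, 0.642% and 0.699% in the KO libraries and at 0.652%, 0.595% and 0.697% in the WT libraries (difference -0.02, SE 0.12). Spn stood at 1.65%, 2.00% and 1.86% in the KO libraries and at 1.84%, 1.80% and 1.75% in the WT libraries (difference 0.04, SE 0.10). The groups overlapped for each of these 3 genes.

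Ctla4 stood at 0.961%, 1.08% and 1.22% of Cd79a in the KO libraries and at 1.01%, 0.900% and 1.28% in the WT libraries (difference 0.05, SE 0.15). Bhlhe41 stood at 1.27%, 1.55% and 1.47% in the KO libraries and at 1.51%, 1.14% and 1.30% in the WT libraries (difference 0.13, SE 0.13). Pdcd1lg2 stood at 0.349%, 0.470% and 0.446% in the KO libraries and at 0.464%, 0.277% and 0.437% in the WT libraries (difference 0.14, SE 0.20). For these too the groups overlapped, with adjusted limma p-values from 0.562 to 0.942 over the 6 genes from Zbtb32 to Pdcd1lg2. With 1 library left out, the Bhlhe41 difference on this scale ran from 0.03 (WT replicate 2) to 0.23 (WT replicate 1), and that of Pdcd1lg2 from -0.08 (WT replicate 2) to 0.26 (WT replicate 1).

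**Figure D3:**
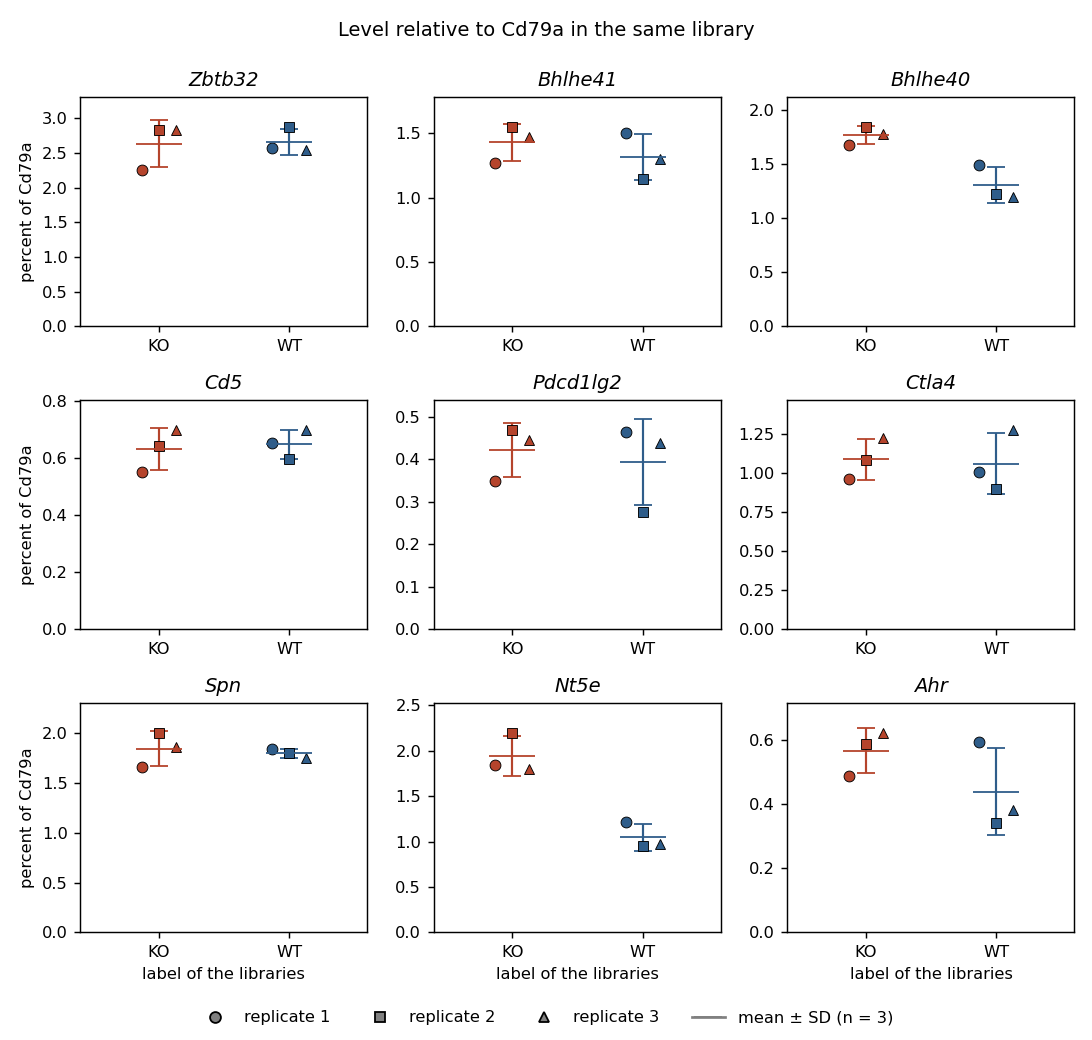
Level of each of the 9 genes as a percent of the Cd79a FPKM of the same library, in the libraries labelled KO (red, left) and WT (blue, right), with the mean and SD; every axis starts at 0. Nt5e lies between 1.80% and 2.20% in the KO libraries and between 0.947% and 1.21% in the WT libraries, while Zbtb32, Cd5, Spn and Ctla4 overlap.

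**Figure D4:**
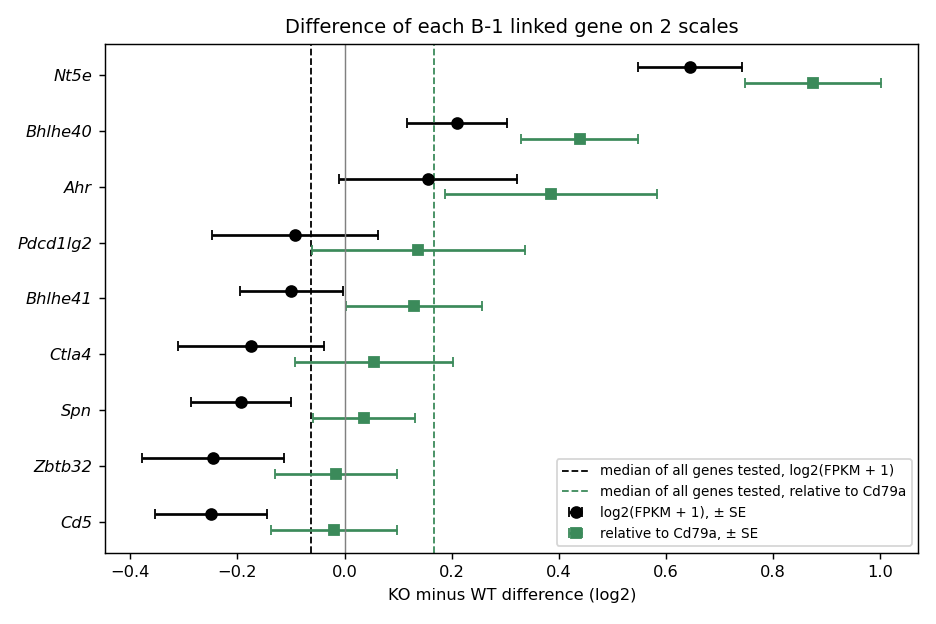
KO minus WT difference (log2) of each of the 9 genes with its SE, on log2(FPKM + 1) (black circles) and relative to Cd79a (green squares); dashed lines mark the median of all genes tested on each scale, -0.06 and 0.17. Nt5e lies to the right of both lines, at 0.64 and 0.87.

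Other genes linked to B-1 cells were read from a list of 16, of which 15 were in the tables and 14 were tested. None passed, 11 differences were negative and 3 positive, and the median was -0.17; with median-of-ratios scaling 8 were negative and 6 positive, and with the 2 other scalings 12 and 2. Cd9, a tetraspanin of B-1 and marginal zone B cells that macrophages express as well, stood at 249.1 ± 62.8 FPKM in KO and 114 ± 7.88 FPKM in WT libraries (SD, n = 3 each; difference 1.10, adjusted p = 0.0787 by limma). Siglecg, an inhibitory lectin that limits B-1 cell numbers in mice, stood at 205 ± 25.2 FPKM in KO and 265 ± 23.3 FPKM in WT (difference -0.37, adjusted p = 0.195 by limma). Cd72, an inhibitory coreceptor of B cells, stood at 122 ± 8.51 FPKM in KO and 155 ± 17.0 FPKM in WT. The groups did not overlap for any of these 3 genes. Il5ra, the receptor chain for interleukin 5 that B-1 cells carry, stood at 18.2 ± 2.79 FPKM in KO and 20.6 ± 1.58 FPKM in WT, with overlap.

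The pan-B cell genes had negative differences in 12 of 12 cases (median -0.24, 0 passed), and this held under each of the 3 other scalings tried. Over all genes tested 64.6% of the differences were negative. Blnk, an adaptor in B cell receptor signalling, stood at 160 ± 6.83 FPKM in KO and 192 ± 8.67 FPKM in WT libraries, and Fcrla, a B cell Fc receptor-like gene, at 299.5 ± 10.4 FPKM in KO and 354 ± 13.3 FPKM in WT (SD, n = 3 each). Of 8 follicular B cell genes tested, all had negative differences (median -0.19, 0 passed), apart from 1 that turned positive with median-of-ratios scaling. Cxcr5, the homing receptor for follicles, stood at 117 ± 2.17 FPKM in KO and 141 ± 9.62 FPKM in WT, and Fcer2a, which encodes the follicular marker CD23, at 20.4 ± 1.37 FPKM in KO and 24.3 ± 6.08 FPKM in WT. Of 6 plasma cell genes tested, 4 were negative and 2 positive (3 and 3 with median-of-ratios scaling), and 0 passed. Jchain, which joins IgM and IgA into polymers, stood at 4.20 ± 0.701 FPKM in KO and 6.17 ± 1.16 FPKM in WT.

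The T cell genes had negative differences in 14 of 14 cases (median -0.30, 0 passed), also under the 3 other scalings. Cd2, which B cells of the mouse express as well, was the most abundant at 210 ± 15.2 FPKM in KO and 237 ± 29.0 FPKM in WT libraries, followed by the kinase gene Lck at 44.6 ± 3.36 FPKM in KO and 57.4 ± 0.362 FPKM in WT (SD, n = 3 each). The T cell receptor subunit gene Cd3e stood at 19.9 ± 2.70 FPKM in KO and 25.4 ± 3.06 FPKM in WT, close to the levels of Ctla4 and above those of Cd5. Foxp3, the factor of regulatory T cells, in which Ctla4 and Nt5e are high, stood at 1.24 ± 0.217 FPKM in KO and 1.45 ± 0.343 FPKM in WT. At an unadjusted limma p under 0.05, 6 of the 14 T cell genes and 4 of the 12 pan-B cell genes were lower and none was higher. Over all genes tested 8.21% were lower and 8.86% higher at that level. The lists were chosen with earlier results of these data known, so these counts are not a test of the lists. The share of T cell RNA in the values of Cd5, Ctla4, Spn and Nt5e was not tested.

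Of 16 peritoneal macrophage genes tested, 15 had positive differences (median 1.63, 0 passed) and 1, Icam2, was negative; with median-of-ratios scaling all 16 were positive. At an unadjusted limma p under 0.05, 14 of the 16 were higher, beside 8.86% of all genes tested. Over all genes, 35.4% of the differences were positive. Among the 14, Gata6 and Timd4 passed the minimum mean only through the KO libraries, with WT means of 0.982 and 0.878 FPKM. Mertk stood at 6.34 ± 1.27 FPKM in KO and 1.78 ± 0.667 FPKM in WT libraries, and Cd14 at 363 ± 112 FPKM in KO and 89.4 ± 32.1 FPKM in WT (SD, n = 3 each). Nt5e, Bhlhe40 and Ahr, those of the 9 with positive differences, lay between 0.16 and 0.64, beside 0.44 for Apoe and 0.90 or more for 14 of the macrophage genes. Of 7 dendritic cell genes, 2 were tested, both with overlapping groups. The NK cell genes were low, with Nkg7 at 10.7 ± 1.44 FPKM in KO and 14.6 ± 4.39 FPKM in WT. The microglia gene with the smallest p was Tmem119, at 2.27 ± 0.148 FPKM in KO and 0.567 ± 0.427 FPKM in WT (adjusted p = 0.104 by limma). Tmem119 passed the minimum mean of 1 FPKM only through the KO libraries, so this p-value is no support for a difference.

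**Figure D5:**
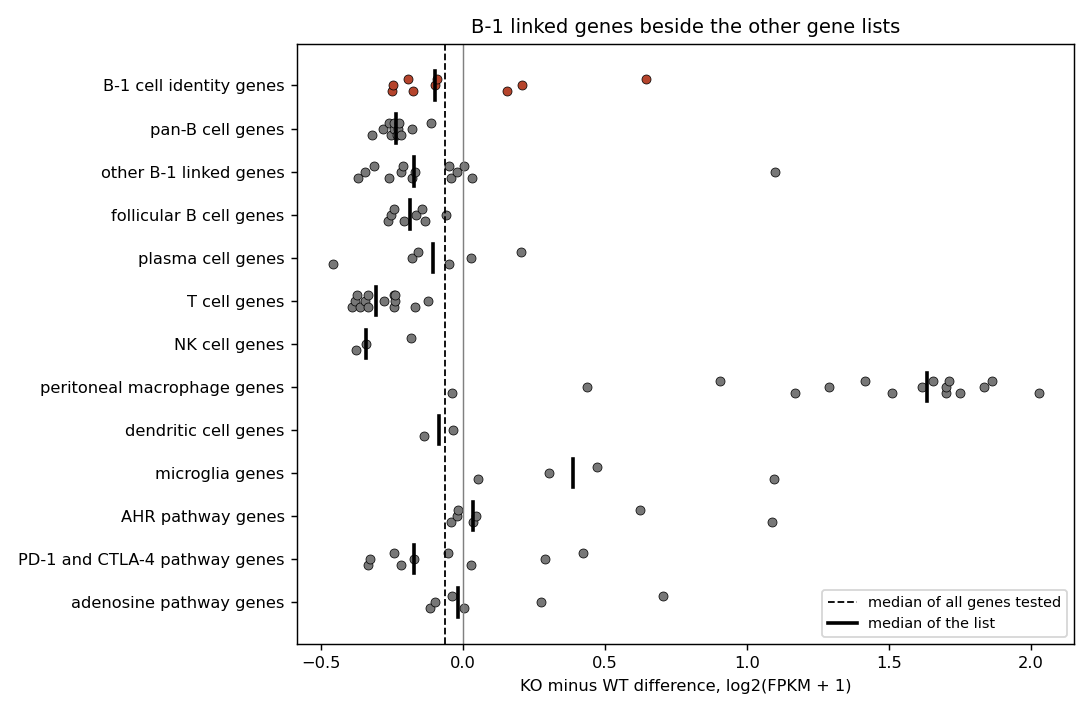
KO minus WT difference on log2(FPKM + 1) of each gene tested, for the 9 B-1 linked genes (red) and for the 12 other gene lists (grey), with the median of each list as a bar and the median of all genes tested as a dashed line. The medians are -0.10 for the 9 genes, -0.24 for the pan-B cell genes, -0.30 for the T cell genes and 1.63 for the peritoneal macrophage genes.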

How the data were processed

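The authors deposited 1 table of FPKM per library, and mm10 is the genome build per the submitters' processing notes. Which aligner, counter, strand setting and annotation were used is not given in the sources used here. The members and all 12 gene lists were chosen with earlier results of these data known. Tests took genes averaging 1 FPKM or more, on log2(FPKM + 1), a scale on which folds of low genes come out too small, with limma 3.58.1 in R 4.3.3 (trend, Benjamini-Hochberg over all genes, threshold 0.05, two-sided). The second fit took log2(FPKM + 1) minus that of Cd79a in the same library. Whole reads were recovered from the FPKM steps within 0.002 reads, for 10732 of 10732 tested genes, up to a factor common to all libraries. This recovery and the limma fit on log2 values were tested on simulated data, and the other steps were not. Named genes were the members, the 3 tested genes of smallest p or highest level of each list, and the 3 nearest profiles; a few others of the lists were named after their values were seen. Positions are from GENCODE M21 (mm10), which held 17801 of 21399 symbols. Protein sequences were not used here, and a planned denominator and a few named genes are not reported here. The alternatives were other pseudocounts, filters, scalings, variance models and denominators, voom on recovered reads, the replicate number as a block, and leaving out each library. Python 3.11.15, pandas 2.3.3 and matplotlib 3.10.9 were used.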

Additional observations from a re-analysis of the deposited data

How the results depend on the processing

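On log2(FPKM + 1), the 3 genes called higher became 6 with a pseudocount of 5, 0 with no filter, 5 by voom on recovered reads, and 544 with array weights, when 68 were called lower. Leaving out 1 library gave 0 to 500 higher and 0 to 38 lower. Relative to Cd79a, the 1047 genes called higher became 1622 with a pseudocount of 5, 7239 with no filter, where genes near 0 carry only the Cd79a value, 561 with Cd79b, 677 with Ms4a1 and 81 with the pan-B mean as denominator, and 1 to 1097 without 1 library. The 2 called lower became 0 with a pseudocount of 5, a filter at 5 FPKM or the pan-B mean, 1 with Cd79b, 5 with Ms4a1, no filter or array weights, and 0 to 13 without 1 library. The deviations of same-numbered libraries from their group means correlated at -0.21, -0.38 and 0.27. Deviations within a group of 3 are tied to each other, so these values cannot tell whether the replicate numbers pair the samples. With the replicate number as a block, 11 genes were called higher on log2(FPKM + 1) and 1 lower relative to Cd79a. No member turned direction on log2(FPKM + 1) except Pdcd1lg2, from -0.25 to 0.0114 without 1 library. Relative to Cd79a, Zbtb32 was 0.00066 with a pseudocount of 5, 0.0820 with array weights and -0.0713 to 0.0914 without 1 library. Cd5 was 0.0385 and 0.00652 under the same settings and -0.0897 to 0.0654 without 1 library. Spn was -0.0169 with Ms4a1 and -0.0269 to 0.11 without 1 library, Ctla4 -0.0538 to 0.19 and Pdcd1lg2 -0.0757 to 0.26. The cause of these changes was not tested. The 9 genes had 782 to 9152 reads a library, and within each group they varied more than counting error.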
